A study of Mus musculus with 6 samples.

Results

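The serine synthesis and folate one-carbon enzymes were taken as 10 named genes of the 46983 genes counted in cerebellum RNA from 6 mice. They comprised the serine synthesis enzymes Phgdh, Psat1 and Psph, the mitochondrial folate enzymes Shmt2, Mthfd2, Mthfd1l and Aldh1l2, and the cytosolic folate enzymes Shmt1, Mthfd1 and Aldh1l1. Each was matched by symbol to 1 gene identifier, and all 10 passed the filter on low counts, which left 16851 genes for testing. All animals were C57BL/6J mice at postnatal day 60 that carried Tie2-Cre, a recombinase whose promoter is active in endothelial and blood lineages. The 3 animals labelled WT were Slc7a5 fl/+, so the control group also carried the recombinase and 1 floxed allele. The 3 animals labelled Slc7a5-KO were Slc7a5 fl/fl, and each library came from its own animal. Slc7a5 encodes LAT1, which carries large neutral amino acids such as leucine across cell membranes, and the series concerns how amino acids cross the barrier between blood and brain. RNA came from the whole cerebellum, most of whose cells lie outside the Tie2 lineage.

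Serine is made from a glycolytic intermediate in 3 steps, which Phgdh, Psat1 and Psph catalyse in that order. The hydroxymethyltransferases Shmt2, in mitochondria, and Shmt1, in the cytosol, then split serine into glycine and a carbon unit carried by folate. In mitochondria Mthfd2 and Mthfd1l turn that unit into formate, which the cytosolic enzyme Mthfd1 puts back on folate, and Aldh1l1 in the cytosol and Aldh1l2 in mitochondria oxidise formyl-folate to carbon dioxide. In brain, Phgdh and Aldh1l1 are known mainly from astrocytes, and several enzymes of serine synthesis and of the mitochondrial branch are known targets of ATF4, a transcription factor active when amino acids are short.

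Gene reads ran from 13.4 to 34.2 M (M, mega) per library, with the fewest in Slc7a5-KO replicate 3. Levels are given as CPM, counts per M gene reads after TMM scaling, a correction for differences in library composition. Groups were compared with edgeR's quasi-likelihood test over all genes, and a gene was called at an adjusted p under 0.05. Slc7a5 measured 72.0, 66.3 and 43.2 CPM in WT replicates 1 to 3 against 164, 59.4 and 118 CPM in Slc7a5-KO replicates 1 to 3 (log2 fold change 0.91 ± 0.42 SE, edgeR adjusted p = 0.84). The log2 value was 0.55 without Slc7a5-KO replicate 1, 0.57 with a sex term and 1.22 without Slc7a5-KO replicate 2 (edgeR adjusted p = 0.75, 0.72 and 0.010). The targeted transcript was thus no lower where the labels say KO, so the names of the groups below are those of the labels alone. Which exons are removed is not given in any source at hand, and gene-level counts would include reads from exons that remain. By Xist and Y-linked counts, WT comprised 1 female and 2 males, whereas Slc7a5-KO comprised 1 male and 2 females. Cerebellar markers were present in every library, among them Cbln3 and Cbln1 of granule neurons and Itpr1 and Car8 of Purkinje cells.

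The promoters of 4 members whose libraries separated the groups, and that of Shmt1 for its contrast with Shmt2, are shown to let their sequence be read beside the values that follow. RefSeq windows on GRCm38.p6, from 250 bases before to 50 bases after the transcription start, matched 9 of the 10 members and gave 10 windows, since Psat1 had a pair of them. Aldh1l2 had no entry. The windows shown are Shmt2 at chr10:127522395-127522694, Mthfd2 at chr6:83317555-83317854, Phgdh at chr3:98339920-98340219, Psph at chr5:129787204-129787503 and Shmt1 at chr11:60811216-60811515, all on the minus strand and written 5′ to 3′. Capitals mark CCAAT boxes (CCAAT), GC boxes (GGGCGG) and the NRF1 core (GCATGCGC), each on either strand.
Shmt2: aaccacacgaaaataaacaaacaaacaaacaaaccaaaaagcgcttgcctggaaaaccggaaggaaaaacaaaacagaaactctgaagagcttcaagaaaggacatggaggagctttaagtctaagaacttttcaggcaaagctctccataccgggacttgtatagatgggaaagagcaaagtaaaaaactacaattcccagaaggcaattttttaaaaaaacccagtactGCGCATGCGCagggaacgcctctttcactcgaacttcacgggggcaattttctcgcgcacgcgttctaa
Mthfd2: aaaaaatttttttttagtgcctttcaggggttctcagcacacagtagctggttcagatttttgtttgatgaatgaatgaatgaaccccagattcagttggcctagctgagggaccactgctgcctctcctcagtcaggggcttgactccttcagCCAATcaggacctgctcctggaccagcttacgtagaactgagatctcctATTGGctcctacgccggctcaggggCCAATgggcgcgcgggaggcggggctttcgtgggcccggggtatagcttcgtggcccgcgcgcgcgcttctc
Phgdh: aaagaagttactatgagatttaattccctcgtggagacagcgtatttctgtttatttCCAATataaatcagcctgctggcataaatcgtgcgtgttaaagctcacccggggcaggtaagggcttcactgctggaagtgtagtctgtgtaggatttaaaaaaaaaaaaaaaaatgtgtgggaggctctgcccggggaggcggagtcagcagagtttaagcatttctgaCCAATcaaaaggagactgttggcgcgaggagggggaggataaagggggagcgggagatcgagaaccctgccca
Psph: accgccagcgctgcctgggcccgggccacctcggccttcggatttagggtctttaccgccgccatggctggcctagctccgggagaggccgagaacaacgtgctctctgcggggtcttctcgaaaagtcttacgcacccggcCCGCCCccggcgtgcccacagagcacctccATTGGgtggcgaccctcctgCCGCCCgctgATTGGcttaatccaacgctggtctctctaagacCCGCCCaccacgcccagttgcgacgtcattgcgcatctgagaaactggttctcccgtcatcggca
Shmt1: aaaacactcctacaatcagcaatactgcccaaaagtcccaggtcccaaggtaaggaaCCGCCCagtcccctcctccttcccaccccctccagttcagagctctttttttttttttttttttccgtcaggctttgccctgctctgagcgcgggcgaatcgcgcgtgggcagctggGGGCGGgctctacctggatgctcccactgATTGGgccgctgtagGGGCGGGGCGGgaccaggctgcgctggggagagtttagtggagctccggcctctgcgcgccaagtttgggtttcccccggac

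The core of the amino acid response element, TGATGNAA, to which ATF4 binds with a partner, was searched on both strands and matched none of the 10 member windows. It matched 3.97% of the 32851 promoter windows searched. No match says only that these letters are not in these windows, and elements in first introns lie outside them. The E-box CACGTG also matched none, against 7.15% of all windows. A CCAAT box was found for 7 of the 9 members and in 37.4% of all windows, and a GC box for 6 members and in 35.7% of all windows. The NRF1 core was found for Shmt2 alone among the members and in 2.71% of all windows, and its 2 matches there lay on opposite strands and overlapped. The CRE half-site TGACGT was found for Psph and Mthfd1l and in 7.51% of all windows. In the sequences above, Shmt2 thus differs from Shmt1 in having neither a CCAAT box nor a GC box, where Shmt1 has 1 and 4. The Shmt2 window was also the poorest in G and C of the 10, at 42.7%, against a median of 52.7% over all windows.

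With all 6 libraries and the filter on low counts, Shmt2 was the 1 member called by edgeR, higher in the libraries labelled Slc7a5-KO. Of the 10 members, 1 was called higher and 0 lower, where 0.0475% of all genes tested were called higher. At an unadjusted edgeR p under 0.05, 5 members were higher and 0 lower, where 3.45% of all genes tested were higher. All 3 libraries labelled Slc7a5-KO lay above all 3 WT libraries for 5 members, namely Phgdh, Psph, Shmt2, Mthfd2 and Aldh1l2, the same 5, and for 5.93% of all genes tested. The median log2 fold change was 0.59 over the 10 members and 0.0022 over all genes tested, and 9 members were above 0. By branch the median was 0.97 for the 4 mitochondrial enzymes, 0.74 for the 3 serine synthesis enzymes and 0.11 for the 3 cytosolic enzymes. In bulk tissue, a change in the number of cells of a type and a change in RNA per cell cannot be told apart.

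**Figure D1:**
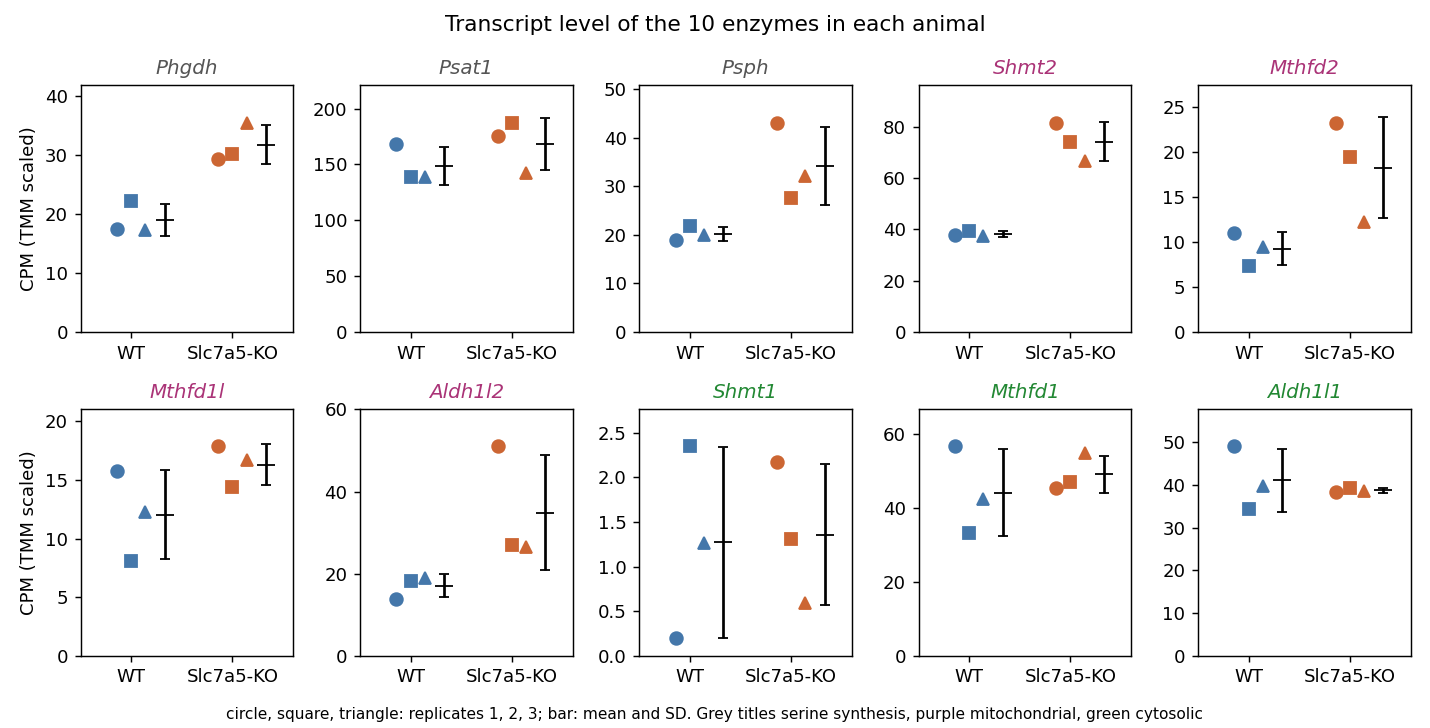
Level of each of the 10 enzymes (y axis, TMM-scaled CPM from 0, 1 panel per gene) in the 3 animals labelled WT and 3 labelled Slc7a5-KO, with circles, squares and triangles for replicates 1 to 3 and a bar for the group mean and SD. Phgdh, Psph, Shmt2, Mthfd2 and Aldh1l2 show no overlap between groups, and the 3 cytosolic enzymes overlap.

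Of the 3 enzymes of serine synthesis, first in the pathway, Phgdh and Psph separated the groups, Psat1 did not, and none was called. Phgdh, the dehydrogenase that commits carbon to serine, measured 17.5, 22.2 and 17.3 CPM in WT replicates 1 to 3 against 29.4, 30.3 and 35.5 CPM in Slc7a5-KO replicates 1 to 3. All 3 animals labelled Slc7a5-KO were above the highest WT animal. The fitted fold change between groups was 1.67 (log2 0.74 ± 0.19 SE, 95% interval 0.34 to 1.13), and over all genes the edgeR adjusted p was 0.29, so Phgdh was not called. Phgdh (ENSMUSG00000053398.11) is a protein-coding gene on GRCm38 chromosome 3, 98313170 to 98339990, minus strand. Psph, the phosphatase of the last step, stood at 19.0, 21.8 and 19.9 CPM in WT and at 43.2, 27.6 and 32.1 CPM in the animals labelled Slc7a5-KO. The groups again did not overlap, and Slc7a5-KO replicate 1 was the highest (log2 0.76 ± 0.20 SE, 95% interval 0.35 to 1.17, edgeR adjusted p = 0.29). Without Slc7a5-KO replicate 1 the log2 value was 0.55 for Psph and 0.79 for Phgdh (edgeR adjusted p = 0.43 and 0.22). Psph (ENSMUSG00000029446.14) lies on chromosome 5, 129765558 to 129787449, minus strand, and shares 452 exon bases with Cct6a on the opposite strand. Aldh1l2 shares 1056 exon bases with D10Wsu102e and Aldh1l1 shares 499 with Gm15756, also on opposite strands, which the stranded counts keep apart. Aldh1l1 shares a further 105 exon bases with Gm45901 on the same strand, which they do not keep apart. The exon overlaps of Shmt1, Mthfd1 and Shmt2 with other genes, of 184, 37 and 32 bases, were on opposite strands.

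Psat1, the aminotransferase of the middle step, did not follow this pattern. Its levels were 169, 139 and 139 CPM in WT against 175, 188 and 142 CPM in the animals labelled Slc7a5-KO. Slc7a5-KO replicate 3 lay below WT replicate 1, so the groups overlapped (log2 0.18 ± 0.14 SE, 95% interval -0.11 to 0.47, edgeR adjusted p = 0.93). With Slc7a5-KO replicate 2 left out the log2 value was 0.092, with WT replicate 1 left out 0.28, and with Slc7a5-KO replicate 3 left out 0.29. Psat1 (ENSMUSG00000024640.9; chromosome 19, 15904678 to 15947337, minus strand) was also the most abundant member, at 35.0 ± 4.08 CPM per kb of exon in WT and 39.6 ± 5.52 in the animals labelled Slc7a5-KO (SD, n = 3). The interval of its fold change lay below the estimates for Phgdh and Psph. Whether its change differed from theirs was not tested.

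Beside these values, the 12 genes listed as astrocyte and Bergmann glia markers had a lower summed level in the animals labelled Slc7a5-KO. Led by Slc1a2 and Aldoc, they summed to 6244 to 6351 CPM in WT and 5636 to 5773 CPM in the animals labelled Slc7a5-KO. Mean levels in WT and in the animals labelled Slc7a5-KO were 1220 and 981 CPM for Aldoc and 1723 and 1645 CPM for Slc1a2. None of the 12 was at 0, 8 had a fold change below 0 and 4 above (median log2 -0.12), and none was called. The sum is weighted toward its most abundant genes, so it does not show astrocytes as such to be fewer or less active. Their part in the level of Phgdh was not tested.

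The mitochondrial branch held the call. Shmt2, which splits serine in mitochondria, stood at 37.8, 39.5 and 37.4 CPM in WT and at 81.6, 74.2 and 66.5 CPM in the animals labelled Slc7a5-KO. The WT animals lay within 2.04 CPM of each other, and the lowest animal labelled Slc7a5-KO was 27.0 CPM above the highest of them. The rise was 1.94-fold (log2 0.96 ± 0.14 SE, 95% interval 0.65 to 1.26, edgeR adjusted p = 0.0098). Without WT replicate 1 or WT replicate 3 the value was 0.95 or 0.94, and the edgeR adjusted p was 0.068 or 0.14, which ended the call. Without any 1 of the other 4 libraries the call held, with edgeR adjusted p of 0.015 to 0.036. Shmt2 (ENSMUSG00000025403.4) spans chromosome 10, 127517123 to 127522444, minus strand.

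Mthfd2, the mitochondrial dehydrogenase and cyclohydrolase, had a fold change of the same size and a wider error. It stood at 11.1, 7.36 and 9.41 CPM in WT and at 23.3, 19.4 and 12.2 CPM in the animals labelled Slc7a5-KO. The groups did not overlap, but Slc7a5-KO replicate 3, the shallowest library with 166 Mthfd2 reads, was only 1.13 CPM above WT replicate 1 (log2 0.98 ± 0.27 SE, 95% interval 0.43 to 1.54, edgeR adjusted p = 0.35). Mthfd2 (ENSMUSG00000005667.8) spans chromosome 6, 83305691 to 83325908, minus strand, and this gene model reaches upstream of the RefSeq start whose promoter is shown.

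Mthfd1l, which releases formate in mitochondria, overlapped between groups. It stood at 15.7, 8.12 and 12.2 CPM in WT and at 17.9, 14.4 and 16.7 CPM in the animals labelled Slc7a5-KO, so WT replicate 1 exceeded Slc7a5-KO replicate 2 (log2 0.44 ± 0.25 SE, 95% interval -0.10 to 0.97, edgeR adjusted p = 0.86). The log2 value was 0.22 without WT replicate 2 and 0.68 without WT replicate 1. Aldh1l2, the mitochondrial formyl-folate dehydrogenase, had the highest fitted value of the 10 members with all 6 libraries and no covariate. It stood at 13.8, 18.3 and 19.0 CPM in WT and at 51.0, 27.1 and 26.5 CPM in the animals labelled Slc7a5-KO. Slc7a5-KO replicate 1 was well above the other animals labelled Slc7a5-KO, which still lay above all WT animals (log2 1.04 ± 0.24 SE, 95% interval 0.53 to 1.55, edgeR adjusted p = 0.22). Without Slc7a5-KO replicate 1 the log2 value was 0.65 (edgeR adjusted p = 0.37). Mthfd1l (ENSMUSG00000040675.17; 3973118 to 4167081, plus strand) and Aldh1l2 (ENSMUSG00000020256.14; 83487450 to 83534140, minus strand) lie on chromosome 10, as Shmt2 does, far apart from it and from each other.

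The cytosolic branch showed no separation. Mthfd1, the cytosolic enzyme with 3 activities, stood at 56.7, 33.3 and 42.6 CPM in WT and at 45.6, 47.0 and 54.8 CPM in the animals labelled Slc7a5-KO. WT replicates 1 and 2 were the highest and the lowest of all 6 animals, so the WT range enclosed the other group's range (log2 0.15 ± 0.18 SE, 95% interval -0.23 to 0.53, edgeR adjusted p = 0.97). Aldh1l1, the cytosolic formyl-folate dehydrogenase and a common astrocyte marker, stood at 49.0, 34.3 and 39.7 CPM in WT and at 38.3, 39.3 and 38.5 CPM in the animals labelled Slc7a5-KO. The WT range enclosed that of the animals labelled Slc7a5-KO here too (log2 -0.08 ± 0.17 SE, 95% interval -0.43 to 0.26, edgeR adjusted p = 0.98). Both intervals lie within 1 log2 unit of 0.

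Shmt1, the cytosolic isozyme of Shmt2, was the rarest member and could not be compared well. It had 7, 65 and 35 reads in WT and 70, 35 and 8 reads in the animals labelled Slc7a5-KO, or 0.198, 2.35, 1.27, 2.17, 1.31 and 0.588 CPM. The lowest and the highest CPM were both in WT animals (log2 0.11 ± 0.90 SE, 95% interval -1.77 to 2.00, edgeR adjusted p = 1.00). WT replicate 1, with the fewest Shmt1 reads, was the deepest library, and the wide interval leaves the size of any difference undetermined. Mthfd1 (ENSMUSG00000021048.6) lies on chromosome 12, 76255298 to 76319803, plus strand. Aldh1l1 (ENSMUSG00000030088.15) lies on chromosome 6, 90486427 to 90600203, plus strand, and Shmt1 (ENSMUSG00000020534.14) on chromosome 11, 60788104 to 60811718, minus strand. Reads that map to several places are listed as 0 in every library, so any member with near-identical copies elsewhere would be understated.

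**Figure D2:**
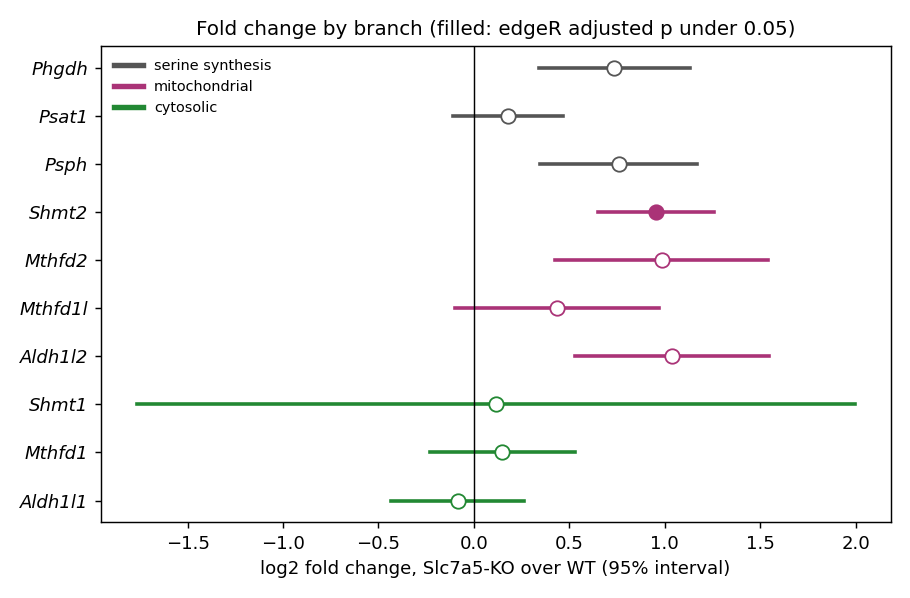
Log2 fold change of the 10 enzymes, libraries labelled Slc7a5-KO over WT (x axis), with the edgeR 95% interval as a line, coloured by branch and filled where the adjusted p was under 0.05. The intervals of 5 members lie above 0, from 0.34 for Phgdh to 0.65 for Shmt2 at their lower ends, those of Psat1, Mthfd1l and the 3 cytosolic enzymes cross it, and Shmt2 alone is filled.

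Scaled by exon length, the transcripts of paired mitochondrial and cytosolic enzymes stood at very unequal levels in this tissue. Shmt2 made up 97.5% ± 2.06 of the length-scaled Shmt2 and Shmt1 transcript in WT and 98.6% ± 0.69 in the animals labelled Slc7a5-KO (SD, n = 3). Aldh1l2 made up 20.4% ± 5.17 of its sum with Aldh1l1 in WT and 34.4% ± 8.75 in the animals labelled Slc7a5-KO. Mthfd1l made up 21.2% ± 1.43 of its sum with Mthfd1 in WT and 25.0% ± 2.76 in the animals labelled Slc7a5-KO. Mthfd1 has further activities, so this share is not that of a single step. The serine-splitting step was thus represented almost wholly by the mitochondrial transcript, and the oxidation of formyl-folate mainly by the cytosolic one.

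The order of length-scaled levels in WT ran from Psat1 at 35.0 CPM per kb through Shmt2 (12.3), Mthfd1 (9.95), Aldh1l1 (9.08) and Phgdh (7.65). It went on with Psph (4.68), Mthfd1l (2.71), Mthfd2 (2.66) and Aldh1l2 (2.27) to Shmt1 at 0.327. Shmt2 and Mthfd1, Mthfd1 and Aldh1l1, and Aldh1l1 and Phgdh overlapped among WT animals, as did Mthfd1l with Mthfd2 and Mthfd2 with Aldh1l2. In the animals labelled Slc7a5-KO Shmt2 stood at 23.8 CPM per kb, apart from its neighbour below. Phgdh, behind Mthfd1 and Aldh1l1 in WT, stood above both there at 12.8 CPM per kb and overlapped with Mthfd1 at 11.1. Mthfd2 (5.25) and Aldh1l2 (4.65) stood above Mthfd1l (3.68) in the mean, with overlapping animals.

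**Figure D3:**
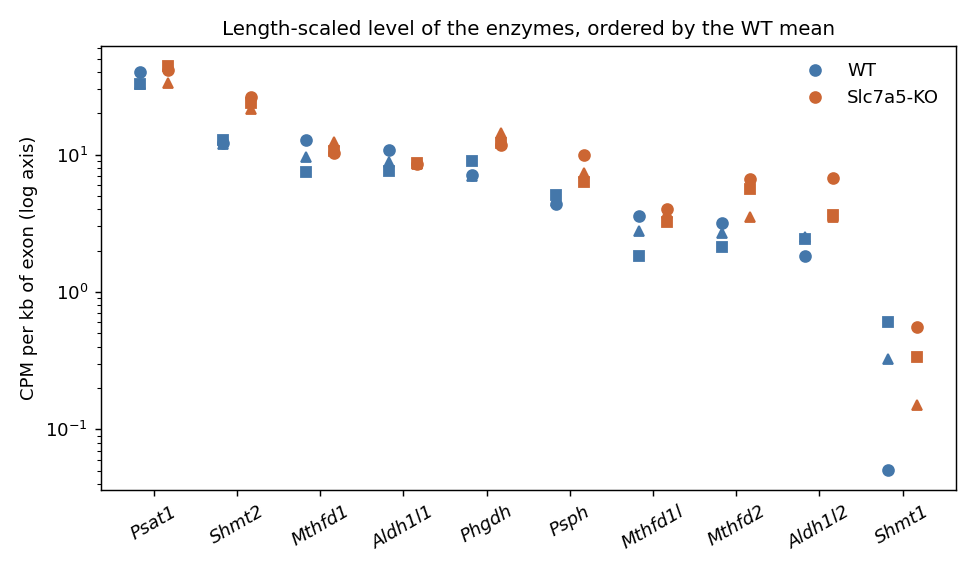
Length-scaled level (y axis, CPM per kb of exon, log axis) of the 10 enzymes in each animal, ordered by the WT mean, with circles, squares and triangles for replicates 1 to 3. Psat1 is the highest in both groups and Shmt1 the lowest, from 0.0509 to 0.604 CPM per kb in WT, and Shmt2 in the animals labelled Slc7a5-KO stands apart from its own WT values.

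The branches were then compared within each animal. The mean log2 CPM of the 4 mitochondrial enzymes was 4.12, 3.86 and 4.09 in WT and 5.18, 4.78 and 4.62 in the animals labelled Slc7a5-KO. The mean of the 3 cytosolic enzymes was 3.19, 3.81 and 3.72 in WT and 3.98, 3.77 and 3.48 in the animals labelled Slc7a5-KO. The mitochondrial means did not overlap between groups and the cytosolic means did. The difference between branch means was 0.94, 0.05 and 0.37 in WT and 1.20, 1.01 and 1.13 in the animals labelled Slc7a5-KO. Shmt1 had 7 reads in WT replicate 1, whose cytosolic mean was the lowest. Without Shmt1 the difference was -1.60, -1.22 and -1.28 in WT and -0.20, -0.65 and -0.91 in the animals labelled Slc7a5-KO, a mean shift of 0.78. The SD of that difference was 0.45 in WT and 0.10 in the animals labelled Slc7a5-KO with Shmt1, and 0.20 and 0.36 without it. No p is given for these branch scores, since the members were chosen with results of these data known.

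Ratios of a mitochondrial to a cytosolic enzyme were tested singly, with a 2-sided exact permutation test over the 6 animals. Its smallest possible p is 0.1, and p was adjusted over 3 pairs. The log2 ratio of Aldh1l2 to Aldh1l1 was -1.82, -0.90 and -1.06 in WT and 0.41, -0.53 and -0.54 in the animals labelled Slc7a5-KO, so the groups did not overlap. Its shift was 1.04 (exact permutation p = 0.1, adjusted 0.15). The log2 ratio of Mthfd1l to Mthfd1 was -1.85, -2.03 and -1.79 in WT and -1.35, -1.70 and -1.71 in the animals labelled Slc7a5-KO, with a gap of only 0.08 between groups. Its shift was 0.30 (exact permutation p = 0.1, adjusted 0.15), although neither gene alone separated the groups. The log2 ratio of Shmt2 to Shmt1 was 7.12, 4.03 and 4.81 in WT and 5.19, 5.75 and 6.65 in the animals labelled Slc7a5-KO. WT held both the highest and the lowest value, and the shift of 0.54 had an exact permutation p of 0.7 (adjusted 0.7). With 3 animals a group, none of these ratios could pass 0.05. The pairs also came from members chosen with results of these data known, so no conclusion is drawn from these p.

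**Figure D4:**
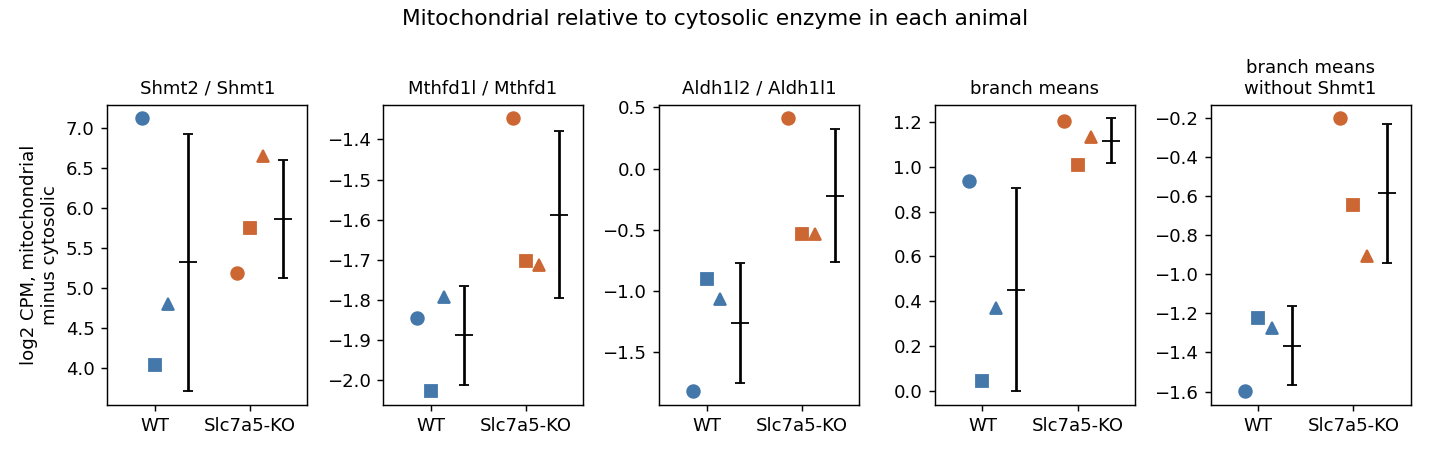
Log2 CPM of the mitochondrial minus the cytosolic enzyme (y axis, each panel with its own scale) in each animal, for 3 enzyme pairs and for the branch means with and without Shmt1, with group mean and SD as bars. Groups overlap for Shmt2 over Shmt1, where WT runs from 4.03 to 7.12, and do not overlap in the other 4 panels.

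Among the other genes of folate and serine metabolism, a serine transporter was the one called. These 35 genes were chosen by role, but with earlier results of these data known, so no conclusion is drawn from their counts. Of them 34 were tested (Bhmt had no reads), 1 was called higher and 0 lower, and their median log2 fold change was -0.07. Over all genes tested, 0.0475% were called higher. At an unadjusted edgeR p under 0.05, Sfxn1 and Slc1a4 were higher, where 3.45% of all genes tested were. Mtrr was lower at that p, for which the share of all genes is not given here. Neither count is read as a result about the pathway. Of the 34, 1 separated the groups upward and 1 downward, where 999 and 933 of the 16851 genes tested did. The called gene was Slc1a4, a transporter of serine and other small neutral amino acids, at 49.4, 55.8 and 54.4 CPM in WT against 105, 108 and 109 CPM in the animals labelled Slc7a5-KO (log2 1.02 ± 0.13 SE, edgeR adjusted p = 0.0029). Its fold change was close to that of Shmt2, and the groups did not overlap. Among the other 8 genes of serine use and transport, none was called.

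Of 15 genes of the folate cycle and folate transport, 5 had a fold change above 0 and 10 below, and none was called or separated the groups. Sfxn1, a mitochondrial serine carrier, had the smallest p, at 70.1 ± 6.44 CPM in WT and 89.0 ± 15.2 CPM in the animals labelled Slc7a5-KO (SD, n = 3; log2 0.34 ± 0.15 SE, edgeR adjusted p = 0.76). Mthfd2l, a mitochondrial relative of Mthfd2, was next and had a value below 0 (log2 -0.41 ± 0.26 SE, edgeR adjusted p = 0.88). The 4 genes of the glycine cleavage system had a median of -0.01, with Dld, its dehydrogenase subunit, at -0.32 ± 0.16 SE and Amt, its aminomethyltransferase, at 0.07 ± 0.17 SE (edgeR adjusted p = 0.82 and 0.99). Of 6 tested genes of the methionine cycle, 3 were above 0 and 3 below. Mtrr, which reactivates methionine synthase, separated the groups downward without a call, at 11.9, 9.96 and 11.5 CPM in WT against 9.29, 7.03 and 5.51 CPM in the animals labelled Slc7a5-KO (log2 -0.60 ± 0.28 SE, edgeR adjusted p = 0.79). Mat2a, which makes S-adenosylmethionine, had -0.25 ± 0.14 SE (edgeR adjusted p = 0.85).

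A further deposited table, of the authors' own comparison, was made from the same libraries. The authors' deposited table listed 5 of the 10 members at an adjusted p under 0.05, all higher, where it listed 0.625% of its tested genes as higher. In the authors' deposited table Shmt2 had an unshrunken log2 fold change of 0.95 (adjusted p = 3.2e-10), Aldh1l2 1.03 (0.0038), Phgdh 0.73 (0.0054), Psph 0.75 (0.010) and Mthfd2 0.98 (0.017). These were the same 5 members that separated the groups without overlap. Psat1, Mthfd1l, Mthfd1, Aldh1l1 and Shmt1 had adjusted p of 0.50 to 0.98 in the authors' deposited table. A current DESeq2 run on the filtered counts called 2 members, Shmt2 and Aldh1l2 (adjusted p = 0.032), where it called 0.294% of its tested genes higher. For the 5 members the fold changes of the 3 analyses lay close together, and their adjusted p did not.

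Other cell types varied between the same animals. All 8 choroid plexus markers, led by Ttr and Enpp2, had a fold change below 0 (median log2 -0.79). They summed to 3674 to 7837 CPM in WT, to 3445 and 6265 CPM in Slc7a5-KO replicates 1 and 3, and to 275 CPM in Slc7a5-KO replicate 2. Without that replicate Shmt2 had a log2 fold change of 0.95 and Aldh1l2 of 1.19 (edgeR adjusted p = 0.015 and 0.085). Phgdh then had 0.76, Psph 0.89, Mthfd2 0.94 and Psat1 0.092. Choroid plexus sums also differed among the remaining animals, so these values do not separate its part from that of the groups. Purkinje markers summed to 5334 to 6557 CPM in WT and 3738 to 5512 CPM in the animals labelled Slc7a5-KO, and all 8 had a fold change below 0 with none called. Microglia markers, led by C1qb and C1qa, summed to 181 to 248 CPM in WT and 223 to 274 CPM in the animals labelled Slc7a5-KO. Of these, 6 had a fold change above 0 and 1 below. Granule neuron markers, of which 7 had a fold change below 0 and 1 above, summed to 4166 to 6149 CPM in WT. Their sums were 3621 and 3709 CPM in Slc7a5-KO replicates 2 and 3, and 5810 CPM in Slc7a5-KO replicate 1. Markers of oligodendrocytes, led by Mbp and Mobp, of endothelium, led by Slc2a1 and Slco1c1, and of meninges, led by Igf2 and Dcn, overlapped between groups, and none of the 50 markers outside the astrocyte list was called. The part of these cell types in the members' values was not tested.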

How the data were processed

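RNA from the cerebellum of 6 mice was sequenced with a SENSE mRNA-Seq V2 kit, per the labels' protocols. The authors' deposited tables hold read counts per gene for both strands and for each strand, from STAR 2.5.4 on GRCm38 (mm10), per the submitters' processing notes. Neither the gene annotation used for counting nor any duplicate removal is given in the sources at hand. The reverse-strand column, which held 94.8% to 95.8% of stranded reads, was used. Reads with no gene or an ambiguous one (19.5% to 22.2%) were left out. The authors' deposited comparison (DESeq2 1.10.1, R 3.2.4) gives, per the file headers, a mean normalised signal, log2 fold changes, a Wald score and p-values. Its design formula was not among the sources.

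Symbols, coordinates and exon lengths came from GENCODE M21, which matched 46488 of 46983 identifiers. Genes passing filterByExpr (minimum count 10, minimum total 15) were scaled by TMM and fitted across all genes with edgeR 4.0.16 in R 4.3.3 (quasi-likelihood, robust, 2-sided, Benjamini-Hochberg, biological coefficient of variation 31.6%). The code was first run on simulated counts. These varied less between animals than the data, so that run does not show how well changes of the members' size are called here. A standard error is the log2 fold change over the root of F, and a prior count of 2 entered log2 CPM. Alternatives were other scalings, no filter, DESeq2 1.42.0, limma-voom (limma 3.58.1), both strands, a replicate block, a sex term and leaving out each library. Replicates are separate animals. The members and lists were chosen with earlier results of these data known. The text names all members, Slc7a5, any called gene of each pathway list or else the 2 with the smallest p, and the 2 most abundant genes of each marker list. Other names, such as Bhmt and Cct6a, were chosen after their values were seen. Some marker genes of the cell type lists are not reported here and were left out of the lists' sums and counts.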

Additional observations from a re-analysis of the deposited data

How the results depend on the processing

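The count of genes called over all genes tested was 8, and became 71 with no filter on low counts, 46 with DESeq2 and 16 with a sex term, and 3 to 20 when 1 library was left out. It was 8 under each other scaling and with both strands, and 6 with limma-voom. The members called numbered 2 with no filter and with DESeq2, where Aldh1l2 joined Shmt2 (edgeR adjusted p = 0.00064 and DESeq2 adjusted p = 0.032). Leaving out 1 library gave 0 to 1. Slc1a4 was the 1 pathway gene called under every setting run. Shmt2 kept its call in all settings but those without WT replicate 1 or 3, with log2 values of 0.88 to 1.03.

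The median difference between the mitochondrial and cytosolic branches was 0.86, and 0.79 to 1.05 when 1 library was left out. It was 0.94 without Shmt1, an alternative added after seeing the data. When 1 library was left out, fold changes that were not called changed sign for Shmt1 (-0.40 to 0.91; -0.39 without WT replicate 1), Mthfd1 (-0.015 to 0.37) and Aldh1l1 (-0.19 to 0.064). The Shmt2 to Shmt1 ratio shift ran from -0.10, without WT replicate 2, to 1.44, the Mthfd1l to Mthfd1 shift from 0.18, without Slc7a5-KO replicate 1, to 0.36 and the Aldh1l2 to Aldh1l1 shift from 0.73 to 1.22. With limma-voom, Shmt1 had 0.94. With 1 library left out, Slc7a5 had values of 0.55 to 1.22, and was called higher without Slc7a5-KO replicate 2 (edgeR adjusted p = 0.010). Mthfd1l had 0.22 to 0.68 and Psat1 0.092 to 0.29, neither called in any. The cause of these moves was not tested, beyond the fewer animals or other method each names.

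Replicate numbers gave no sign of pairing the animals. Same-numbered deviations correlated at -0.04, -0.06 and -0.03 across genes, which are not independent, and 0 of 3 WT animals correlated best with their own number. Same-numbered animals were of opposite sex in every case, so these correlations could miss a pairing. The fit with a replicate block called 6 genes and the 1 member Shmt2 (log2 0.95, edgeR adjusted p = 0.041), and the branch difference was 0.77. Shmt1 had 7 to 70 reads per library, the fewest of the members, and counts without molecular identifiers may include PCR copies.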
